A study of Mus musculus with 6 samples.

Results

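The 38 genes described here encode the machinery of macroautophagy and of the lysosome, and they were read by gene name from the RNA-seq table of a CD36 knockdown in C2C12 cells, a mouse skeletal muscle line that grows as myoblasts and fuses into myotubes. All 38 were found among the 55450 genes of the table, and all 38 were among the 11796 genes expressed highly enough to be tested. They fall into 7 roles: 9 genes of autophagy initiation and nucleation, 6 of ATG conjugation, 5 ATG8 proteins, 6 receptors and mitophagy genes, the transcription factors TFEB and TFE3, 4 lysosomal membrane proteins, and 6 lysosomal enzymes and luminal proteins. CD36, a membrane receptor that takes up long-chain fatty acids, was knocked down with siRNA (siCD36, n = 3), and control cells received a control siRNA (siCont, n = 3). Per the study's methods, both groups were transfected at 20 nM and used after 72 h. The study's results section places this RNA-seq among the experiments without palmitate load. The labels name the cells as myoblasts of strain C57BL/6 and the methods as myotubes. The labels state neither which siCD36 duplex each sample received nor that the 3 samples of a group were grown apart. The p-values therefore measure only how far these samples spread, and that spread may be technical.

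In macroautophagy a membrane sac grows around cytoplasm, closes into an autophagosome and fuses with a lysosome, whose acid hydrolases degrade the content. The ULK kinases and the class III PI3-kinase complex start the sac, the ATG conjugation enzymes attach ATG8 proteins to its lipids, and receptors tie cargo to those ATG8 proteins. In skeletal muscle the pathway is known for clearing damaged mitochondria and glycogen and for protein breakdown during fasting. TFEB and TFE3 are transcription factors that switch on many lysosomal and autophagy genes through a palindrome called the CLEAR element, whose core is the E-box CACGTG.

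The knockdown was seen in every library. Cd36 had 38, 32 and 30 counts in the siCD36 samples and 1010, 1129 and 1103 counts in the siCont samples, a log2 fold change of -5.26 (SE 0.167, edgeR adjusted p = 2.95e-04) that left 2.61% of the siCont level. Library totals ran from 56907806 to 71878709 counts, and the 38 genes had between 488 counts (Tfeb, siCD36 replicate 2) and 103247 counts (Ctsb, siCD36 replicate 1) in a library. The myotube markers were present, with Myog, Mymk, Mymx, Myh3, Myh8, Acta1, Ckm and Tnnt3 summing to 11616 to 15412 CPM in siCD36 and 14630 to 18817 CPM in siCont. CPM is the count scaled to sequencing depth. Of these 8, Myh3, an embryonic myosin, fell (log2 fold change -0.62, edgeR adjusted p = 0.0210) and the other 7 did not pass. Proliferating myoblast markers summed to 46.5 to 70.7 CPM in siCD36 and 31.1 to 36.1 CPM in siCont, and 1 of the 3 tested, Myf5, rose (0.93, edgeR adjusted p = 0.0274). Macrophage markers summed to 10.5 to 15.8 CPM in siCD36 and 11.0 to 13.7 CPM in siCont, with Adgre1 at 0 in every library, and 3 of 5 adipocyte markers were at 0 throughout. Fibroblast markers summed to 841 to 893 CPM in siCD36 and 744 to 929 CPM in siCont. The part of the myotube and myoblast markers in the results below was not tested.

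The promoters of the genes on which the results turn are shown first, because TFEB is itself among the 38 genes and acts through a known DNA element. RefSeq promoters of GRCm38.p6, from 250 bases before to 50 bases after the start site, matched 30 of the 38 genes. Each is printed 5′ to 3′ on the strand of its gene, and capitals mark CACGTG, or the longer TCACGTGA at the second site of Mcoln1. Positions are those of the first base of CACGTG. Ulk2 (chr11:61855043-61855342, minus strand), Wipi1 (chr11:109611340-109611639, minus strand) and Atg5 (chr10:44268089-44268388, plus strand) are the 3 genes that passed the test across all genes. Lamp1 (chr8:13158911-13159210, plus strand) and Mcoln1 (chr8:3500269-3500568, plus strand) are lysosomal membrane genes that hold several copies of the core and did not pass.
Ulk2: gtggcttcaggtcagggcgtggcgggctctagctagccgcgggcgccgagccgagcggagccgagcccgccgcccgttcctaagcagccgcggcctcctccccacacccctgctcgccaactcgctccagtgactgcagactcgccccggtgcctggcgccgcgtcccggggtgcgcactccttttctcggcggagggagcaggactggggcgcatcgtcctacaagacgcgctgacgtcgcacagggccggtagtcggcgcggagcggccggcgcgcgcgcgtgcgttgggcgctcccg
Wipi1: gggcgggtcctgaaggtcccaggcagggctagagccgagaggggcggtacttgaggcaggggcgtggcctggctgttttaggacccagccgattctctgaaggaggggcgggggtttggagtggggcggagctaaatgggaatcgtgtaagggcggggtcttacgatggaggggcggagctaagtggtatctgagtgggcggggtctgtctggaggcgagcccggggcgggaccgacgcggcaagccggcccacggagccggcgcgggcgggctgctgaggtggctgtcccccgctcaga
Atg5: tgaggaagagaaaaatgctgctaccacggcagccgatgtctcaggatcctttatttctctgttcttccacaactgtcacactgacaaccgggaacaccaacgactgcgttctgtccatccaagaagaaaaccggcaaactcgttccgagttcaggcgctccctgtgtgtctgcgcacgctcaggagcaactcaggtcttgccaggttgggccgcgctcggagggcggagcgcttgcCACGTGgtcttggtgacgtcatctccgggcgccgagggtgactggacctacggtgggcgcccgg
Lamp1: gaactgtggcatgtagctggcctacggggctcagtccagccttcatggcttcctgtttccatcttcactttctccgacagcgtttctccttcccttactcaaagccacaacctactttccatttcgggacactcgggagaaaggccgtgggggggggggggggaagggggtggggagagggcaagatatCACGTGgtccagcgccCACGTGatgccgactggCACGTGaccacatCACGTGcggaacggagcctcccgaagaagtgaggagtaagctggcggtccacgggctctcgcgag
Mcoln1: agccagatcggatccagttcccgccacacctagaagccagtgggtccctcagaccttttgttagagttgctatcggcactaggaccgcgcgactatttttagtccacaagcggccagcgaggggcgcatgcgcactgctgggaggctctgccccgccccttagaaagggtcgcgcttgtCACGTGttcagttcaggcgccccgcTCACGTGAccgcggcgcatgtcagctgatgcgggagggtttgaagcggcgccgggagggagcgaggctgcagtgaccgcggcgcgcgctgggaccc

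CACGTG, which reads the same on both strands, was present in 10 of the 30 promoters (33.3%), against 8.09% of the promoters of all 27025 genes in the RefSeq table and 12.3% of those of 8218 tested genes. The 10 were Atg14, Atg3, Atg5, Atg7, Bnip3, Ctsd, Ctsl, Gaa, Lamp1 and Mcoln1. Among them, the windows of Atg7, Atg14 and Ctsl lie wholly inside the annotated gene, at a start site within it. That of Atg7 is the farthest in (window chr6:114670846-114671145, gene from 114643097). The longer palindrome TCACGTGA, which contains CACGTG, was present in 3 (Atg3, Ctsd and Mcoln1; 10.0%, against 1.12% of all genes and 2.54% of tested genes). That palindrome extended by G at its start and C at its end was in 0 of the 30, against 0.37% of all genes and 0.913% of tested genes. Lamp1 held 4 copies of CACGTG, which lay at -61, -45, -28 and -15 from the start site, and Mcoln1 held 2, at -71 and -45. Atg5 held 1 copy at -14. These letters were not in the windows of Ulk2 and Wipi1. The Wipi1 window (chr11:109611340-109611639) also lies wholly inside the annotated gene (chr11:109573331-109611967), at a start site within it. The sequence at the annotated 5′ end of Wipi1 was therefore not read. A match describes the letters of a window and is not a binding site.

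Transcripts of the 38 genes covered a wide range of levels. Per length, as the mean FPKM over the 6 samples, the highest were Ctsd (509), Lamp1 (411), Map1lc3a (400), Gabarap (221), Ctsb (202) and Sqstm1 (194), and the lowest was Tfeb (2.07). The summed level of the 38 genes was 8475 to 9724 CPM in siCD36 and 9495 to 10104 CPM in siCont, and these ranges overlapped.

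**Figure D1:**
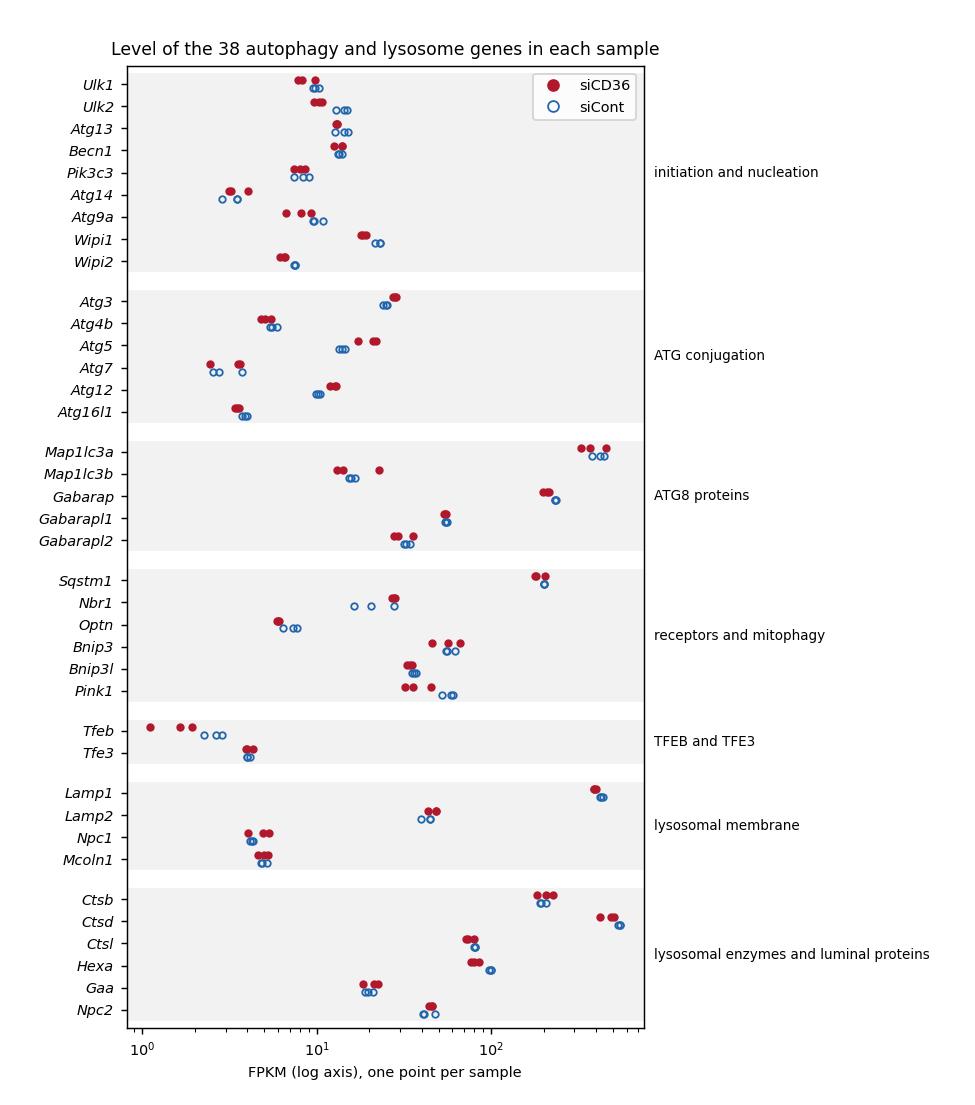
Level of each of the 38 genes in every sample, as FPKM on a log axis, with filled red points for the 3 siCD36 samples and open blue points for the 3 siCont samples, grouped by role. Ctsd, Lamp1 and Map1lc3a stand at the top of the range with means of 509, 411 and 400 FPKM, Tfeb stands at the bottom with 2.07 FPKM, and for most genes the groups lie close together.

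Loss of Cd36 transcript was accompanied by small differences in these genes. In edgeR's quasi-likelihood test, which is two-sided and was adjusted over all 11796 genes, Atg5 rose, Ulk2 and Wipi1 fell, and the other 35 did not pass. The 1 gene that rose is 2.63% of the 38, beside 2.20% of all genes tested (260), and the 2 that fell are 5.26%, beside 3.06% (361). At an unadjusted p under 0.05 there were 10 of the 38 genes (26.3%), 2 higher and 8 lower, beside 25.4% of all genes tested. None of the 38 met the study's own thresholds (unadjusted p under 0.05 and a change of at least 1 on the log2 scale), which 1.76% of all genes tested met. The 38 genes were therefore called about as often as genes at large. In bulk RNA, fewer cells of a type and less RNA per cell cannot be told apart.

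The log2 fold changes of the 38 genes ranged from -0.76 (Tfeb) to 0.49 (Atg5), and 36 of them were under 0.5 in size. Their median was -0.12, beside 0.00 over all genes tested, and 26 of 38 (68.4%) were negative, beside 49.5% of all genes. The siCD36 samples lay wholly below the siCont samples for 13 genes (34.2%, beside 16.3% of all genes tested) and wholly above for 3 genes, Atg3, Atg5 and Atg12 (7.89%, beside 16.1%). For the other 22 genes the groups overlapped. The 95% interval of the difference lay inside -1 to 1 for 37 of the 38 genes, Tfeb being the exception, inside -0.5 to 0.5 for 28, and held 0 for 28.

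The calls depended on the libraries. None of the 38 genes passed when siCD36 replicate 2, siCD36 replicate 3 or siCont replicate 1, 2 or 3 was left out, while 5 passed without siCD36 replicate 1 (Atg5, which rose, and Ulk2, Wipi1, Hexa and Pink1, which fell). In the 5 fits with no call, 9 to 13 of the 38 genes had an unadjusted p under 0.05. In the same order, the calls among all genes numbered 20, 143, 76, 22 and 117, and 1073 without siCD36 replicate 1. The median of the 38 genes stayed between -0.17 and -0.06 in these 6 fits. DESeq2's Wald test called 8 of the 38 genes, Atg5 and Atg12 as higher and Ulk2, Wipi1, Wipi2, Hexa, Pink1 and Tfeb as lower, and it called 1677 genes in all.

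**Figure D2:**
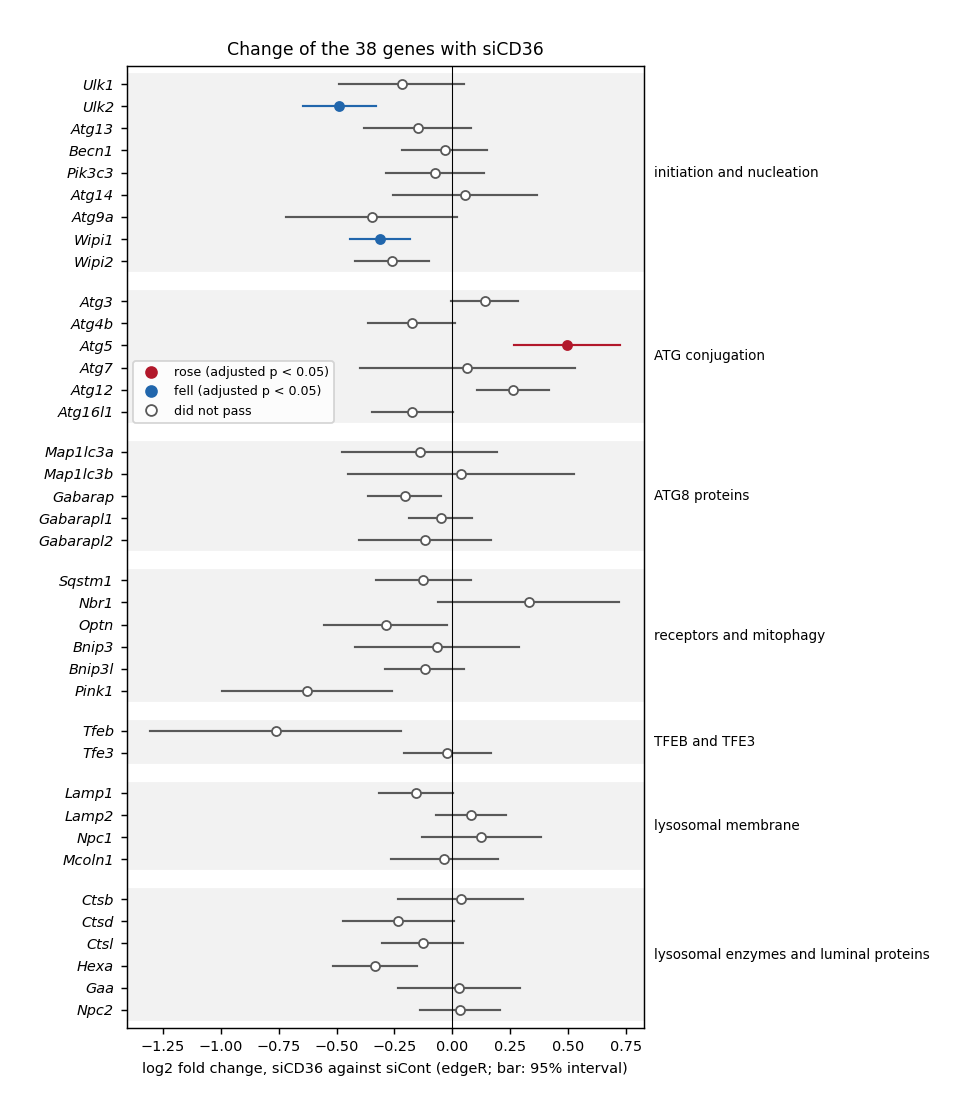
Log2 fold change of each of the 38 genes, siCD36 against siCont, from edgeR, with its 95% interval as a bar. Filled red marks a rise and filled blue a fall at an adjusted p under 0.05, which 1 and 2 genes reached, and 28 of the 38 intervals hold 0.

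Among the 9 initiation and nucleation genes, 2 fell (22.2%), 0 rose and 7 did not pass, with a median log2 fold change of -0.22. Beside this and the later roles and lists stand the shares of all 11796 genes tested. These were 3.06% for a fall, 2.20% for a rise and 25.4% for an unadjusted p under 0.05. Of the 11796, DESeq2 called 1677, and limma, run at 2 pseudocounts, called 553 and 564. ULK2, with its close relative ULK1, is the kinase that starts autophagosome formation. Ulk2 (chr11:61775649-61855073, GRCm38) was measured at 65.7, 70.6 and 67.1 CPM in the siCD36 samples and 91.4, 99.6 and 94.5 CPM in the siCont samples. All 3 siCD36 samples lay below all 3 siCont samples. The means were 67.8 ± 2.51 CPM (SD, n = 3) and 95.1 ± 4.16 CPM (SD, n = 3), a log2 fold change of -0.49 (SE 0.0655, edgeR adjusted p = 0.0196) that left 71.3% of the siCont level. Without 1 of the 5 libraries other than siCD36 replicate 1 its log2 fold change stayed between -0.52 and -0.46, with edgeR adjusted p-values of 0.0530 to 0.102. Ulk1 read 72.5, 59.1 and 55.6 CPM in siCD36 and 74.6, 74.8 and 68.5 CPM in siCont, and its groups overlapped (-0.22, 95% interval -0.49 to 0.05, edgeR adjusted p = 0.281). Ulk2 made up 54.3% ± 4.04 of the summed FPKM of the 2 kinases in siCD36 and 58.7% ± 1.49 in siCont (SD, n = 3).

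WIPI1 and WIPI2 bind the lipid PI3P on the growing sac, and WIPI2 recruits the conjugation machinery. Wipi1 (chr11:109573331-109611967, GRCm38) was measured at 90.4, 93.6 and 89.4 CPM in siCD36 and 112, 115 and 113 CPM in siCont. The groups were well separated relative to their spread, with means of 91.1 ± 2.19 and 113 ± 1.11 CPM (SD, n = 3). The log2 fold change was -0.31 (SE 0.0537, edgeR adjusted p = 0.0314), or 80.5% of siCont. Without 1 of the same 5 libraries it was -0.33 to -0.30 with edgeR adjusted p-values of 0.0794 to 0.144. It also missed the threshold in edgeR with no scaling beyond the library total (adjusted p = 0.0571) and in limma (adjusted p = 0.0623 and 0.0655 at the 2 pseudocounts). Wipi2 read 78.5, 75.4 and 70.6 CPM in siCD36 and 93.0, 88.7 and 87.3 CPM in siCont. Its groups did not overlap either, and its log2 fold change of -0.26 (95% interval -0.42 to -0.10) did not pass (edgeR adjusted p = 0.0779). Wipi1 held 74.4% ± 0.963 of the summed FPKM of the pair in siCD36 and 75.1% ± 0.708 in siCont (SD, n = 3), so the balance of the pair was similar in both groups.

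The other initiation genes did not pass. Atg9a, which encodes the scramblase that supplies early membrane, read 61.0, 51.5 and 42.2 CPM in siCD36 and 74.3, 62.1 and 60.5 CPM in siCont (-0.35, 95% interval -0.72 to 0.02), with siCD36 replicate 1 inside the siCont range. Atg13, a ULK complex subunit, had a log2 fold change of -0.15. The subunits of the class III PI3-kinase complex had values nearest to 0, at -0.03 for Becn1, -0.07 for Pik3c3, the catalytic subunit, and 0.05 for Atg14, with edgeR adjusted p-values of 0.648 to 0.828. Becn1 shares 43.9% of its exon bases with Cntd1 on the other strand, which had a mean of 11.3 counts. The summed level of the 9 genes was 541 to 601 CPM in siCD36 and 649 to 690 CPM in siCont, without overlap. Sums of several other roles and lists were also apart, as given below.

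**Figure D3:**
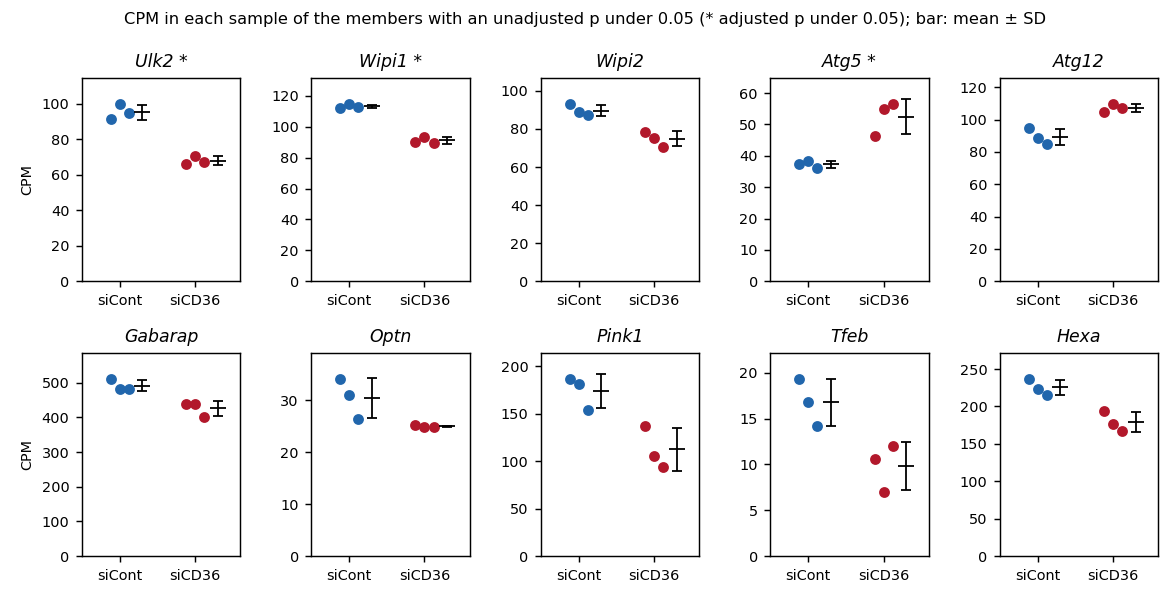
CPM in each sample of the 10 genes with an unadjusted p under 0.05, blue for siCont and red for siCD36, with the mean and SD of 3 samples beside the points and asterisks for an adjusted p under 0.05. Ulk2 and Wipi1 lie lower and Atg5 higher in siCD36 with no overlap, and Pink1 and Tfeb spread more widely within their groups.

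Among the 6 conjugation genes 1 rose (16.7%, beside 2.20% of all genes tested), 0 fell and 5 did not pass. The median log2 fold change was 0.10. ATG5 is joined to ATG12 and, with ATG16L1, forms the complex that directs lipid attachment of ATG8 proteins. Atg5 (chr10:44268358-44364291, GRCm38) was measured at 46.2, 54.8 and 56.4 CPM in siCD36 and 37.4, 38.3 and 36.0 CPM in siCont. All siCD36 samples were above all siCont samples, and siCD36 replicate 1 was the nearest to them. The means were 52.5 ± 5.51 and 37.2 ± 1.14 CPM (SD, n = 3), a log2 fold change of 0.49 (SE 0.0957, edgeR adjusted p = 0.0407), or 141% of siCont. Without 1 of the 5 libraries other than siCD36 replicate 1 the log2 fold change was 0.44 to 0.51, with edgeR adjusted p-values of 0.104 to 0.158, and without siCD36 replicate 1 it was 0.58.

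Atg12, which encodes the ubiquitin-like partner of ATG5, read 104, 109 and 107 CPM in siCD36 and 94.6, 88.5 and 84.7 CPM in siCont. The groups did not overlap, and the log2 fold change of 0.26 (95% interval 0.11 to 0.42) did not pass in edgeR (adjusted p = 0.0729). Atg3, the E2-like enzyme for ATG8 proteins, read 98.1, 97.9 and 98.1 CPM in siCD36 and 93.6, 85.5 and 88.1 CPM in siCont (0.14, edgeR adjusted p = 0.210). Atg16l1 and Atg4b, the ATG8 protease, were lower in siCD36 in all samples, with log2 fold changes of -0.17 and -0.18 and edgeR adjusted p-values of 0.199 and 0.218. Atg7, the E1-like enzyme that activates ATG12 and the ATG8 proteins, overlapped between the groups (0.06, edgeR adjusted p = 0.866). The summed level of the 6 genes was 354 to 375 CPM in siCD36 and 323 to 343 CPM in siCont, without overlap. Sums were also apart, lower in siCD36, for TFEB and TFE3 (47.1 to 55.9 and 56.5 to 63.2 CPM). The lysosomal membrane genes were apart in the same way (1750 to 1787 and 1816 to 1903 CPM), and the remaining roles overlapped. Among the further lists described below, the sums of core autophagy, fusion, hydrolases, V-ATPase and mannose 6-phosphate sorting were apart and lower in siCD36. Those of the other autophagy and lysosome lists overlapped.

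None of the 5 ATG8 genes passed in edgeR, and DESeq2 and limma also called 0 of them. At an unadjusted p under 0.05 there was 1, Gabarap. ATG8 proteins are the ubiquitin-like proteins that coat the autophagosome and bind receptors. Gabarap read 439, 439 and 400 CPM in siCD36 and 510, 481 and 482 CPM in siCont. Its groups did not overlap (-0.21, SE 0.0661, 95% interval -0.37 to -0.05, edgeR adjusted p = 0.121). Map1lc3a, which encodes LC3A, read 611, 481 and 422 CPM in siCD36 and 531, 592 and 546 CPM in siCont, with siCD36 replicate 1 the highest of all 6 samples (-0.14, edgeR adjusted p = 0.571). Map1lc3b, which encodes LC3B, read 121, 188 and 107 CPM in siCD36 and 136, 132 and 137 CPM in siCont. There siCD36 replicate 2 stood above the other 5 samples, and the log2 fold change of 0.04 had an interval from -0.45 to 0.53. Gabarapl1 and Gabarapl2 had log2 fold changes of -0.05 and -0.12. Gabarapl2 has 3 copies that are near-identical over part of its transcript, with means of 6.33 to 74.0 counts beside 5334. How reads were assigned between them is unknown, so some uncertainty remains.

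The composition of the ATG8 family, as shares of its summed FPKM, was nearly the same in both groups. Map1lc3a made up 55.1% ± 3.64 in siCD36 and 55.1% ± 1.94 in siCont (SD, n = 3). Gabarap made up 30.1% ± 2.53 and 31.2% ± 1.501 in the same order. Map1lc3b, the form most used as an autophagosome marker, made up 2.41% and 2.10%.

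Among the 6 receptors and mitophagy genes 0 passed in edgeR, 2 had an unadjusted p under 0.05, DESeq2 called 1, Pink1, and limma called 0. PINK1 is the kinase that accumulates on damaged mitochondria and marks them for removal. Pink1 read 137, 105 and 94.3 CPM in siCD36 and 186, 181 and 154 CPM in siCont. The groups did not overlap, yet each spread over a wide range, with means of 112 ± 22.3 and 174 ± 17.6 CPM (SD, n = 3). The log2 fold change was -0.63 (SE 0.153, 95% interval -0.996 to -0.260, edgeR adjusted p = 0.0707), or 64.7% of siCont. Without siCD36 replicate 1 it was -0.80 and passed (edgeR adjusted p = 0.0245), and without 1 of the other 5 libraries it did not.

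Optn, which encodes the ubiquitin-binding receptor optineurin, read 25.2, 24.8 and 24.9 CPM in siCD36 and 34.1, 31.0 and 26.4 CPM in siCont (-0.29, edgeR adjusted p = 0.169). Here the spread lay in the siCont group. Nbr1, a receptor for ubiquitinated cargo, read 210, 213 and 209 CPM in siCD36 and 133, 158 and 212 CPM in siCont, so that siCont replicate 3 matched the siCD36 samples (0.33, 95% interval -0.06 to 0.72, edgeR adjusted p = 0.261). Sqstm1, which encodes the receptor p62, read 779, 670 and 656 CPM in siCD36 and 795, 759 and 743 CPM in siCont, with overlap (-0.13, edgeR adjusted p = 0.409). Bnip3 and Bnip3l, mitophagy receptors induced by hypoxia in many cells, had log2 fold changes of -0.07 and -0.12. Both have copies elsewhere that are near-identical over part of the transcript, 4 for Bnip3 and 1 for Bnip3l. The copies of Bnip3 had means of 13.3 to 97.7 counts beside 9318, and that of Bnip3l had 555.5 beside 9763. How reads were assigned between genes and copies is unknown, so some uncertainty remains. Of 16 other HIF-1 targets, 0 passed in edgeR, 5 had an unadjusted p under 0.05, DESeq2 called 2 and limma 0, with a median of -0.19.

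Of the 2 transcription factors, neither passed in edgeR, 1 had an unadjusted p under 0.05, DESeq2 called 1, Tfeb, and limma called 0. Tfeb had the lowest level and the largest change of the 38 genes. It read 10.6, 6.96 and 12.001 CPM in siCD36 and 19.3, 16.8 and 14.2 CPM in siCont. The groups did not overlap, with 12.001 CPM as the highest siCD36 and 14.2 CPM as the lowest siCont value. The log2 fold change was -0.76 (SE 0.225, 95% interval -1.31 to -0.22, edgeR adjusted p = 0.103), or 58.9% of siCont. Tfe3 read 45.2, 40.2 and 40.4 CPM in siCD36 and 43.9, 41.5 and 42.3 CPM in siCont (-0.02, edgeR adjusted p = 0.890). Tfeb made up 27.5% ± 5.30 of the summed FPKM of the 2 factors in siCD36 and 39.0% ± 3.27 in siCont (SD, n = 3). Of the 10 genes with CACGTG in the promoter, edgeR called 1, Atg5, beside 621 of all 11796 genes tested. DESeq2 also called only Atg5 among these 10, beside 1677 of the 11796. A link of this call to TFEB was not tested.

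The 4 lysosomal membrane genes had a median log2 fold change of 0.02. None passed in edgeR, 0 had an unadjusted p under 0.05, and DESeq2 and limma called 0. Lamp1, a major glycoprotein of the lysosomal membrane, read 1188, 1144 and 1175 CPM in siCD36 and 1350, 1312 and 1251 CPM in siCont. Its groups did not overlap, and the difference was small (-0.16, 95% interval -0.32 to 0.00, edgeR adjusted p = 0.200). Lamp2, whose isoforms act in chaperone-mediated autophagy and in fusion, read 471, 506 and 505 CPM in siCD36 and 449, 480 and 472 CPM in siCont (0.08, edgeR adjusted p = 0.477). Npc1, the cholesterol exporter, and Mcoln1, the calcium channel TRPML1, had log2 fold changes of 0.13 and -0.03. Lamp1 made up 89.4% ± 0.539 of the summed FPKM of the 2 LAMP genes in siCD36 and 90.9% ± 0.542 in siCont (SD, n = 3).

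Of the 6 lysosomal enzymes and luminal proteins, 0 passed in edgeR, 1 had an unadjusted p under 0.05, DESeq2 called 1, and limma called 0. Hexa, which encodes the alpha subunit of the ganglioside-degrading beta-hexosaminidase, was that gene in both counts. It read 193, 176 and 167 CPM in siCD36 and 237, 224 and 216 CPM in siCont. The groups did not overlap, and the log2 fold change was -0.33 (SE 0.0757, 95% interval -0.52 to -0.15, edgeR adjusted p = 0.0593), or 79.4% of siCont. Without siCD36 replicate 1 it was -0.39 and passed (edgeR adjusted p = 0.0339). Ctsd, which encodes cathepsin D, the aspartic protease of the lysosome, read 1358, 1266 and 1091 CPM in siCD36 and 1528, 1441 and 1397 CPM in siCont (-0.23, 95% interval -0.47 to 0.01, edgeR adjusted p = 0.205).

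Ctsb, which encodes the cysteine protease cathepsin B, read 1558, 1389 and 1220 CPM in siCD36 and 1474, 1303 and 1286 CPM in siCont, with overlap (0.04, edgeR adjusted p = 0.869). The 3 cathepsin genes were also compared as shares of their summed FPKM. Ctsb held 27.0% to 27.8% in siCD36 and 23.4% to 24.6% in siCont, and Ctsd held 62.1% to 63.6% and 65.8% to 66.7%. Both sets of ranges were apart, and these shares are given as a description with no test. Ctsb shares 12.8% of its exon bases with Fdft1 on the other strand, which had a mean of 6491 counts beside 88080 for Ctsb. Ctsl (cathepsin L), Gaa (the glycogen-degrading acid alpha-glucosidase) and Npc2 (a luminal cholesterol carrier) had log2 fold changes of -0.13, 0.03 and 0.03 and edgeR adjusted p-values of 0.328, 0.895 and 0.804.

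**Figure D4:**
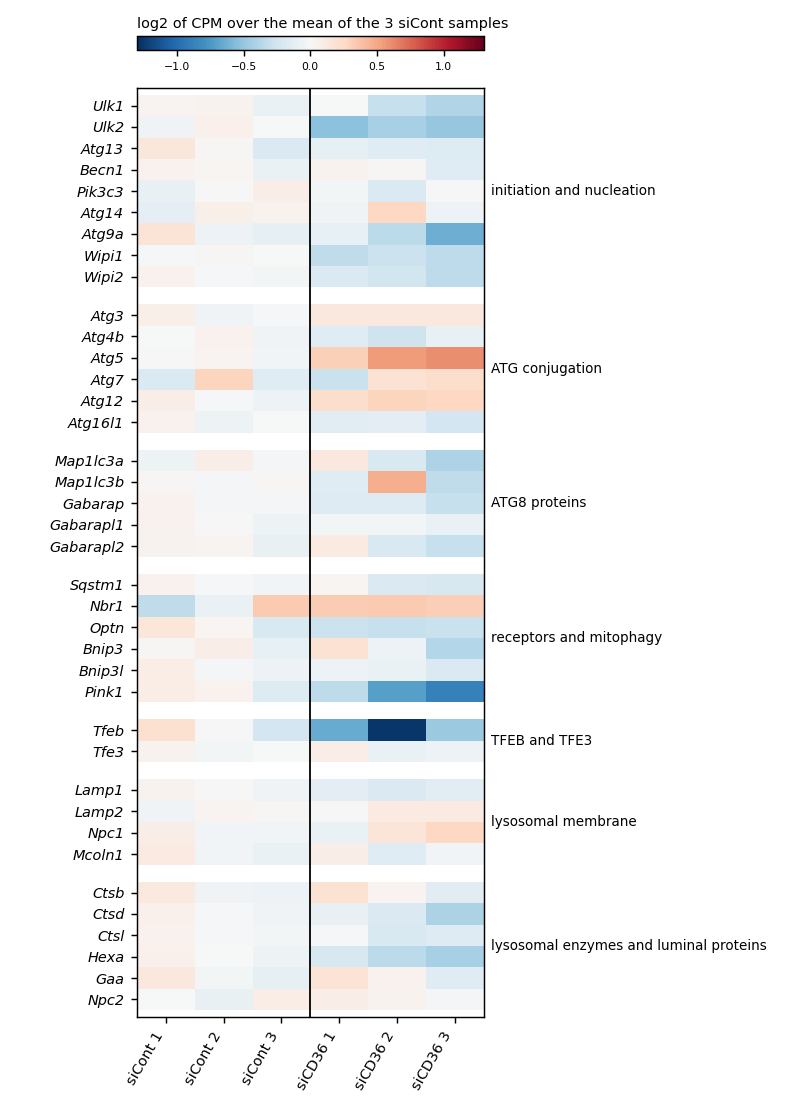
Log2 ratio of the CPM of each gene in each sample to the mean of the 3 siCont samples, with red for higher and blue for lower on a scale from -1.3 to 1.3, siCont on the left and siCD36 on the right. Ulk2 and Pink1 are blue and Atg5 is red in all 3 siCD36 samples, Tfeb is darkest in siCD36 replicate 2, and Nbr1 in siCont replicate 3 has the color of the siCD36 samples.

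Samples of 1 group also differed along many of the 38 genes at once. Replicate 1 was the highest of the siCD36 samples in 22 of the 38 genes and replicate 3 the lowest in 23. In the siCont group the counts were 24 and 24 for the same replicate numbers. Mitochondrial transcripts made up 7.86% to 8.22% of the counts in siCD36 and 6.199% to 8.221% in siCont, and their part in these differences was not tested.

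The rest of the pathway was read from 8 further lists of autophagy and lysosome genes, of which 140 genes were tested. Of these, 3 rose, 7 fell and 44 (31.4%) had an unadjusted p under 0.05, and their median log2 fold change was -0.11, close to the -0.12 of the 38 genes. The share that rose was 2.14%, beside 2.20% of all genes tested, and the share that fell was 5.00%, beside 3.06%. The 31.4% at an unadjusted p under 0.05 stood beside 25.4%. Of 20 other core autophagy genes, 2 rose (10.0%, beside 2.20% of all genes tested) and 0 fell, with a median of -0.02. Nrbf2, which encodes a subunit of the ATG14-containing class III PI3-kinase complex, read 25.6, 25.0 and 24.8 CPM in siCD36 and 10.4, 14.0 and 11.9 CPM in siCont. This was the only one of the 10 genes called with a change of over 1 on the log2 scale (1.06, SE 0.126, edgeR adjusted p = 0.0157), while its partners Becn1, Pik3c3 and Atg14 were at -0.07 to 0.05. Vmp1, an ER membrane protein needed for autophagosome formation, read 339, 326 and 317 CPM in siCD36 and 253, 261 and 256 CPM in siCont (0.35, SE 0.0558, edgeR adjusted p = 0.0274). Vmp1 shares 2.38% of its exon bases with Mir21a.

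Of 12 other receptors and mitophagy genes, 1 rose (8.33%) and 2 fell (16.7%), beside 2.20% and 3.06% of all genes tested. The median was -0.02. Retreg1, an ER-phagy receptor also known as FAM134B, read 119, 122 and 112 CPM in siCD36 and 175, 175 and 168 CPM in siCont (-0.56, SE 0.0589, edgeR adjusted p = 0.0134). Tollip, a ubiquitin-binding adaptor, fell by 0.49 on the log2 scale (edgeR adjusted p = 0.0237). Stbd1, which binds glycogen, rose by 0.38 (edgeR adjusted p = 0.0376). In 15 genes of autophagosome-lysosome fusion the median was -0.30, the lowest of the lists, and 3 fell: Tecpr1 (-0.49), the HOPS subunit Vps39 (-0.43) and the SNARE Ykt6 (-0.30), with edgeR adjusted p-values of 0.0284, 0.0252 and 0.0431. These 3 are 20.0% of the 15 genes, beside 3.06% of all genes tested. Their groups did not overlap, which adds no support, because the genes were called in these same samples.

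The lysosomal lists held few calls. Of 34 other hydrolases 1 fell (2.94%), Galc, the galactosylceramidase (-0.33, edgeR adjusted p = 0.0421). Of 18 other lysosomal membrane proteins 1 fell (5.56%), the lipid transporter Abca2 (-0.49, edgeR adjusted p = 0.0303). Among all genes tested 3.06% fell. Of the 18 subunits of the V-ATPase, the pump that acidifies the lysosome, 0 passed in edgeR, 6 had an unadjusted p under 0.05 DESeq2 called 3 and limma 0, with a median of -0.15. Of 9 genes of mannose 6-phosphate sorting, 0 passed, 2 had an unadjusted p under 0.05, DESeq2 called 1 and limma 0, with a median of -0.17. Of 14 genes of the RAG and folliculin system, which controls TFEB at the lysosome, 0 passed in edgeR, 3 had an unadjusted p under 0.05, DESeq2 called 3 and limma 1, with a median of -0.02. Without siCD36 replicate 2 or siCont replicate 2 all 10 calls of these lists were lost. Leaving out siCD36 replicate 3 or siCont replicate 1 lost 8, siCont replicate 3 lost 9, and siCD36 replicate 1 lost 1. With all libraries kept, a fit with replicate number as a block lost 7, among them Tecpr1, Vps39 and Ykt6. No filter beyond 1 count in any sample lost 6. The other fits of all libraries lost 0 to 3 of the calls that they tested.

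**Figure D5:**
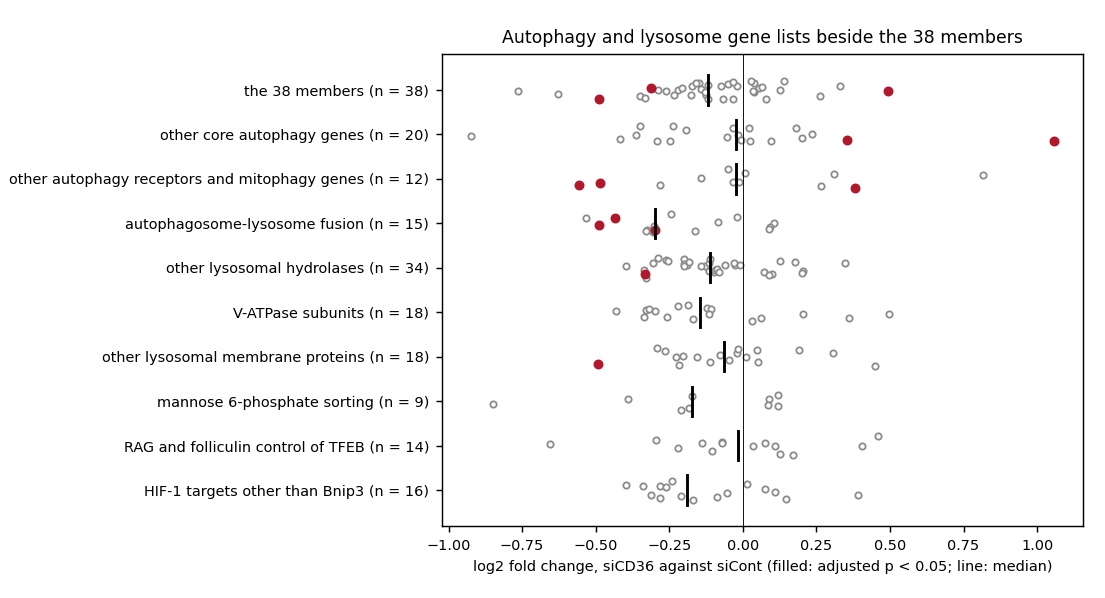
Log2 fold changes, siCD36 against siCont, of the 38 genes and of the further lists, 1 point per tested gene, with a vertical line at the median of each list and filled points for an adjusted p under 0.05. The medians lie between -0.30 for autophagosome-lysosome fusion and -0.02, and Nrbf2 is the filled point farthest to the right at 1.06.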

How the data were processed

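RNA-seq of 6 C2C12 samples was analysed, 3 siCD36 and 3 siCont, grouped by the GEO labels. Per the study's methods, the authors used HISAT (version 2.0) for alignment, StringTie for FPKM and edgeR for testing. The deposited table gives each gene a raw, unnormalized count and an FPKM value, which the authors scaled to transcript length and depth. The sources used here do not give the counting tool, genome build, annotation or strand setting. No value column was without a sample (0 columns).

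Genes averaging 1 FPKM or more entered the fit (11796). The deposited counts, with TMM scaling, were fitted in edgeR 4.0.16 (quasi-likelihood, R 4.3.3), with Benjamini-Hochberg adjustment over all of them and calls at 0.05. CPM, the usual depth-scaled count, uses the TMM-scaled library size, and the SE was obtained from the log2 fold change and its F statistic. FPKM, which is per length, was used to compare genes. Totals of 56907806 to 71878709 counts leave counting error small beside the spread between samples. The edgeR step was tested on simulated data. All pairs of libraries differed beyond sampling noise (chi-square per gene of at least 74.1).

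The 38 genes and the further lists were chosen with earlier results of these data known, and no p was adjusted over a list alone. All 38 genes are named, in full where they passed or had the smallest adjusted p of their role, with up to 5 called genes of each further list. Gene positions are those of the deposited table, and 37 of the 38 genes have the same coordinates in GENCODE M21 (GRCm38). Promoters are from RefSeq (GRCm38.p6). In GENCODE M21, 15 of the 38 genes share exon bases with another gene, none of them Ulk2, Wipi1 or Atg5. With the strand setting unknown, reads of such pairs cannot be told apart. Alternatives were other scalings and filters, DESeq2 1.42.0, limma 3.58.1 on log2(FPKM + 1) and log2(FPKM + 0.1), a replicate block, and each library left out.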

Additional observations from a re-analysis of the deposited data

How the results depend on the processing

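The number of genes called among all tested was 621 in edgeR, 1677 in DESeq2's Wald test, 327 with no filter beyond 1 count in any sample and 199 with a replicate block, and it ran from 20 to 1073 when 1 library was left out. Of the 38 genes, 1 rose, and the number was 2 with no scaling beyond the library total, 2 in DESeq2's Wald test, 0 with no filter, 0 with the replicate block, and 0 to 1 without 1 library. The number that fell was 2, and it was 6 in DESeq2's Wald test, 1 in limma on log2(FPKM + 1), 1 in limma on log2(FPKM + 0.1), 1 with no filter, 1 with the replicate block, and 0 to 4 without 1 library. With no scaling beyond the library total it was again 2, but these were Ulk2 and Hexa in place of Ulk2 and Wipi1 (Wipi1 adjusted p = 0.0571). Ulk2 was the gene that stayed called with no filter and with the replicate block (adjusted p = 0.0498). The number at the study's thresholds was 0 in every fit. DESeq2 size factors, upper quartile scaling and edgeR's filterByExpr called Atg5, Ulk2 and Wipi1, as in the report, and a minimum of 5 FPKM, which left 31 of the 38 genes, added Hexa. No called gene changed direction in these fits. Deviations of same-numbered samples correlated at 0.150, -0.0294 and 0.0587. The value for replicate 1 was the highest of all pairs. The 0.0587 of siCD36 replicate 3 with its same-numbered sample was close to its 0.0541 with siCont replicate 2. For siCD36 replicate 2 the highest was siCont replicate 3 (0.0892). The labels do not say whether same-numbered samples were handled together, and this was not tested. Among the 38 genes Tfeb had the lowest count, 488, and so the largest relative counting error. Its samples also spread, with 9.87 ± 2.61 CPM in siCD36 and 16.8 ± 2.55 CPM in siCont (SD, n = 3). The causes of these shifts were not tested.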
